A study of Mus musculus with 12 samples.

Results

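MiR-22 is encoded by a single mouse hairpin gene, Mir22, from which both strands of the processed duplex are named and measured. The 2 mature miRNAs, miR-22-3p (mmu-miR-22-3p on the array) and miR-22-5p (mmu-miR-22-5p), were taken by name from the 1881 miRNAs of the array, on which each is 1 row, and from the table of normalized values deposited by the authors. They were selected on scanner signals of these same arrays, in which miR-22-5p had been seen to be higher after pargyline, so the pargyline comparisons are described below and not tested. The arrays covered 12 hearts of male C57BL6/J mice aged 5 months, 1 array for each mouse, with 3 mice in each of 4 groups. Control (C) mice received neither agent, control + pargyline (C + P) mice received pargyline, diabetic (D) mice received streptozotocin, and diabetic + pargyline (D + P) mice received both. Streptozotocin kills the beta cells that make insulin, and its daily dose was 50 mg/kg over 5 days. Pargyline inhibits monoamine oxidase (MAO), and its daily dose was 50 mg/kg over 12 weeks, with vehicle in the mice without it. The whole heart muscle RNA of a mouse was hybridised, so that a change in the number of cells of a type and a change in the miRNA content of each cell cannot be told apart. An extraction note of the sample records names macrophages in place of heart tissue. All 4 heart muscle miRNAs examined (miR-1a-3p, miR-133a-3p, miR-208a-3p and miR-499-5p) were detected on all 12 arrays.

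During miRNA maturation the hairpin is cut to a short duplex, and 1 strand, the guide, is loaded into an Argonaute protein and directs it to target mRNAs through its seed. The other strand, the passenger, is mostly degraded. For miR-22 the guide is the 3p strand, which is abundant in heart and skeletal muscle and known for its part in the hypertrophic growth of cardiomyocytes, while the 5p strand is the passenger.

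The sequences of both arms are shown because the arms carry different seeds, the bases with which a loaded miRNA finds its target mRNAs. They are given 5′ to 3′, from RefSeq on build GRCm38.p6, with the seed (bases 2 to 8) in capitals.
miR-22-5p: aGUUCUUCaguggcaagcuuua
miR-22-3p: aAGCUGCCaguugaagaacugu
MiR-22-5p lies at chr11:75463734-75463755 and miR-22-3p at chr11:75463772-75463793, both on the + strand and both 22 bases long. The hairpin is 95 bases long, with the 5p arm at its bases 19 to 40 and the 3p arm at bases 57 to 78, and it lies inside the span of the non-coding host gene Mir22hg. In the minimum free energy fold of the hairpin, 19 of the 22 bases of each arm were paired with the other arm. Among 1679 mature mouse miRNAs with a sequence, no other shared either seed, so no seed family could be set beside the pair. Of the 1881 miRNAs on the array, 1608 had a sequence in that table.

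MiR-22-3p was a bright and nearly flat feature of the scanner data, whereas miR-22-5p was dim and varied widely. Both were detected on all 12 arrays. The signal of miR-22-3p ran from 685 to 1202 over all hearts, a span of 1.75-fold, and that of miR-22-5p from 4.46 to 46.4, a span of 10.4-fold. The scanner software also gives an error for each signal, and the signal was 13.5 to 14.0 times its error for miR-22-3p and 3.52 to 12.8 times for miR-22-5p. The 5p signal stood at 2.36 to 30.0 times the lowest detected signal of its array. Signals of different probes are not numbers of molecules, so only changes between arrays are read from them.

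The guide strand, miR-22-3p, gave scanner signals of 709, 707 and 689 in C hearts. In C + P hearts its signals were 835, 714 and 1202. In D hearts its signals were 834, 799 and 685, and in D + P hearts they were 703, 778 and 919. The D hearts overlapped with the C hearts, and the D + P hearts with the C + P and D hearts. The C + P hearts were all above the C hearts, the lowest of them at 714 against the highest C heart at 709.

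The passenger strand, miR-22-5p, gave scanner signals of 5.82, 4.46 and 4.55 in C hearts. In C + P hearts its signals were 21.3, 26.3 and 46.4. In D hearts its signals were 20.9, 20.0 and 13.5, and in D + P hearts they were 11.7, 15.8 and 21.3. The C hearts lay below every other heart and the C + P hearts above every other heart, the lowest of them only just, while D and D + P lay between. The higher signal with pargyline that led to the choice of this miRNA was thus seen in hearts without diabetes, where no array of C + P overlapped with C, whereas D + P and D overlapped. Arrays without overlap were common in these comparisons, since 65.6% of the 128 miRNAs detected on every array were higher in D than in C without overlap and 85.9% were higher in C + P than in C. In D + P against C + P, 11.7% were lower without overlap.

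**Figure D1:**
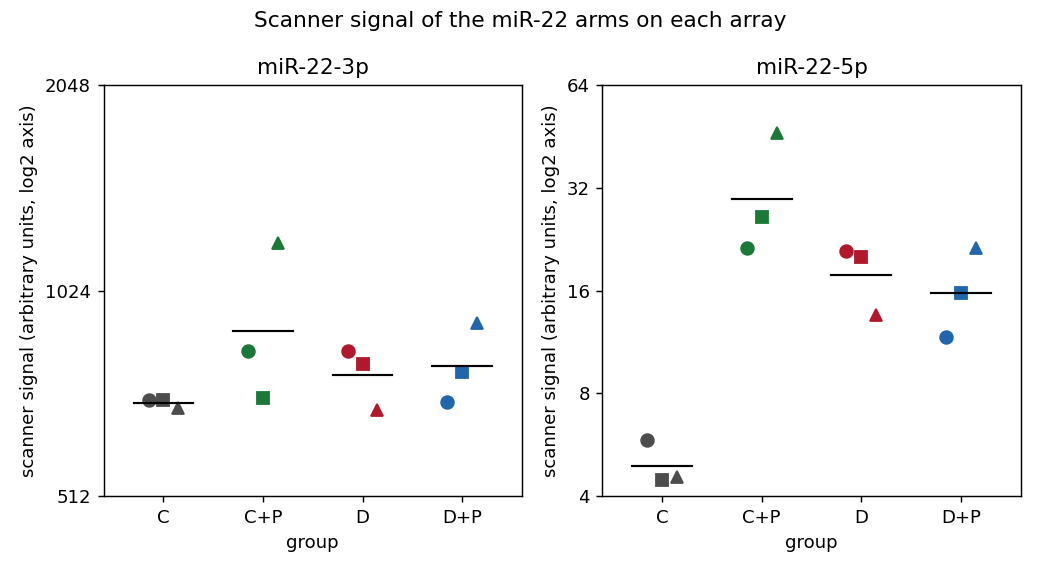
Scanner signal of miR-22-3p and miR-22-5p (arbitrary units, log2 axis; the 5p axis covers a wider range) on each of the 12 arrays, by group. Each point is 1 heart, the marker shape gives its replicate number and the line is the geometric mean of 3. The 3p signals lie between 685 and 1202 in all groups, while the 5p signals of the C hearts, 4.46 to 5.82, lie below all others.

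The brightness of the whole array differed between the groups too. Summed over the detected miRNAs of an array, the signal lay between 27107 and 35028 for C hearts, between 48104 and 61254 for D hearts, between 39661 and 58631 for D + P hearts and between 57895 and 89040 for C + P hearts. The 5p signal was lowest where the array was dimmest and highest on the brightest array, and the part of array brightness in its pattern was not tested. As a percentage of that summed signal, miR-22-5p was 0.0158% ± 0.0013 in C, 0.0436% ± 0.0078 in C + P, 0.0333% ± 0.0048 in D and 0.0324% ± 0.0036 in D + P (SD, n = 3). On this scale every C heart was still below every other heart. MiR-22-3p was 2.27% ± 0.30 in C, 1.31% ± 0.16 in C + P, 1.43% ± 0.07 in D and 1.63% ± 0.13 in D + P (SD, n = 3), and here the C hearts were above all others. The D + P array with the lowest summed signal (39661) was close in brightness to the C array with the highest (35028), and their 5p signals were 11.7 and 5.82. These single arrays also differ in slide, array row, streptozotocin and pargyline, so the pair does not separate brightness from group. The D + P array is that of replicate 1, which stood apart in comparisons below.

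Slide 1 held the hearts without pargyline and slide 2 those with it, so that pargyline and slide cannot be told apart. On both slides the mice without diabetes were in array row 1 and the diabetic mice in row 2, so row and diabetes cannot be told apart either.

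Since both arms are read on the same array, their ratio is not moved by a scaling of the whole array, and it was followed as the log2 signal of miR-22-3p minus that of miR-22-5p. In C hearts this difference was 6.93, 7.31 and 7.24. In C + P hearts it was 5.29, 4.76 and 4.69. In D hearts it was 5.32, 5.32 and 5.66, and in D + P hearts it was 5.91, 5.63 and 5.43. The C hearts had the widest gap between the arms and the C + P hearts the narrowest, with D and D + P between them. This order ran against the summed signal, which was lowest on the C arrays and reached its highest value in C + P. Within C, C + P and D + P the gap also narrowed with each brighter array, in D + P from 5.91 at 39661 to 5.43 at 58631. In D the dimmest array had the widest gap. The part of array brightness in the gap was not tested. The C hearts overlapped with no other group, C + P did not overlap with D + P, while D overlapped with D + P. The neighbours C + P and D did not overlap but came close, at 5.29 for the highest C + P heart and 5.32 for the lowest D heart.

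The ratio of 3p over 5p signal was 144 ± 19.6 in C, 30.7 ± 7.31 in C + P, 43.5 ± 6.17 in D and 50.9 ± 8.57 in D + P (SD, n = 3). The C ratio rests on 5p signals of 4.46 to 5.82, only 2.36 to 2.60 times the lowest detected signal of their array. Between D and C the log2 difference changed by -1.73 in D, which is a 3.31-fold smaller ratio. With 16 added to each signal before the log2, the change was -0.57. The exact permutation test gave p = 0.1 (two-sided), the smallest value that 3 arrays against 3 can give. Between D + P and C + P the difference was larger in D + P by 0.74, a 1.67-fold larger ratio, with p = 0.1 in the same exact test. With both comparisons together and labels permuted within each slide, the mean change was -0.49 and the exact permutation test gave p = 0.245, where 0.005 is the smallest value possible. The arm ratio thus differed with diabetes in opposite directions without and with pargyline. Neither test of 3 against 3 could reach the threshold, and the mean change did not pass it. The arm ratio by group on these arrays was part of the choice of the pair, so these tests are not independent of that choice. Among the 6 hairpins with both arms detected on every array, 83.3% had arm differences that did not overlap between D and C, and 50% between D + P and C + P. In C + P against C the ratio was 4.74-fold smaller, and in D + P against D it was 1.17-fold larger with overlapping arrays, both as a description.

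**Figure D2:**
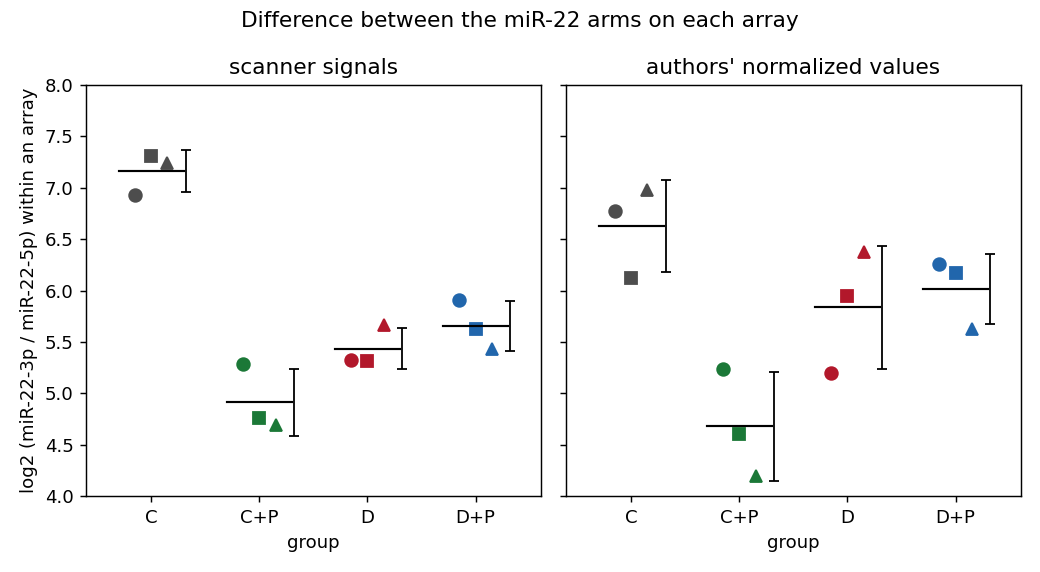
Difference in log2 signal between miR-22-3p and miR-22-5p within each array, by group, from scanner signals (left) and from the normalized values of the authors (right). Points are hearts, lines are means and bars are SD of 3. On the left the C hearts (6.93 to 7.31) lie above all others, and on the right the D and C hearts overlap.

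In the authors' normalized values, which per the methods were filtered on detection and put through cyclic loess before deposit, the ratio of the arms was 102 ± 28.9 in C, 26.8 ± 9.99 in C + P, 60.4 ± 23.2 in D and 66.0 ± 14.5 in D + P (SD, n = 3). The order of the means was that of the scanner signals. The D and C hearts overlapped, with a log2 change of -0.79 (exact permutation test, p = 0.2), and the C + P hearts remained below all C and D + P hearts.

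The comparison of D with C asked how diabetes went with each arm in hearts without pargyline. Diabetes and array row cannot be told apart in it. After log2 transformation and cyclic loess of the 128 miRNAs detected on all 12 arrays, miR-22-5p was 2.90, 2.88 and 2.69 in C hearts and 4.18, 4.46 and 4.00 in D hearts. MiR-22-5p rose by 1.39 (limma adjusted p = 0.00035, standard error 0.17), a 2.62-fold change with a 95% interval of 1.03 to 1.76 on the log2 scale. This was the lowest p-value of the 128 miRNAs in that comparison, which uses the same C arrays as the one that led to the choice of miR-22-5p and is not independent of it. Limma called 50% of the 128 miRNAs in D against C, with 24.2% of the 128 higher in D and 25.8% lower. No D heart overlapped with a C heart in miR-22-5p, and 35.2% of the 128 miRNAs were higher in D without overlap.

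MiR-22-3p was 10.11, 10.45 and 10.12 in C hearts and 9.13, 9.23 and 9.41 in D hearts on the same scale. It fell by 0.97 (standard error 0.22, limma adjusted p = 0.0073), a 1.96-fold change with a 95% interval of -1.46 to -0.49, and no D heart overlapped with a C heart, where 34.4% of the 128 miRNAs were lower in D without overlap. This fall is relative to the other miRNAs of the array. In scanner signals, where the median of the 128 miRNAs was higher in D by 0.77, miR-22-3p was higher by 0.13 with overlapping arrays (limma adjusted p = 0.73 without normalization), so the direction of the guide strand turned with the scaling. The share of called miRNAs that were higher in D was 48.4% with cyclic loess, 95% without normalization, 32.1% with scaling to the 75th percentile of the 128 miRNAs and 29.8% in the authors' values.

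The rise of miR-22-5p in D was present in scanner signals, by 1.86 on the log2 scale or 3.63-fold, and 5 of the 128 miRNAs had a larger difference there. It was not present in the authors' normalized values, where miR-22-5p was 11.4, 22.6 and 9.38 in C and 16.02, 10.5 and 8.15 in D. These ranges overlapped, and the log2 difference was -0.27 (limma adjusted p = 0.52). MiR-22-3p was lower in D than in C in those values as well, at 1250, 1575 and 1182 in C and 586, 646 and 676 in D, with a log2 difference of -1.06. How far the scale and centring of that table differ from those used here is not known, and its column medians ran from 15.9 to 31.4. With cyclic loess and 1 array left out, the rise of miR-22-5p was 1.26 to 1.49 and the fall of miR-22-3p 0.87 to 1.04, and both stayed past the threshold for all 12 arrays left out. With 16 added to each signal before the log2, which shrinks changes of dim miRNAs, the rise of miR-22-5p was 0.474 (limma adjusted p = 0.0057).

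**Figure D3:**
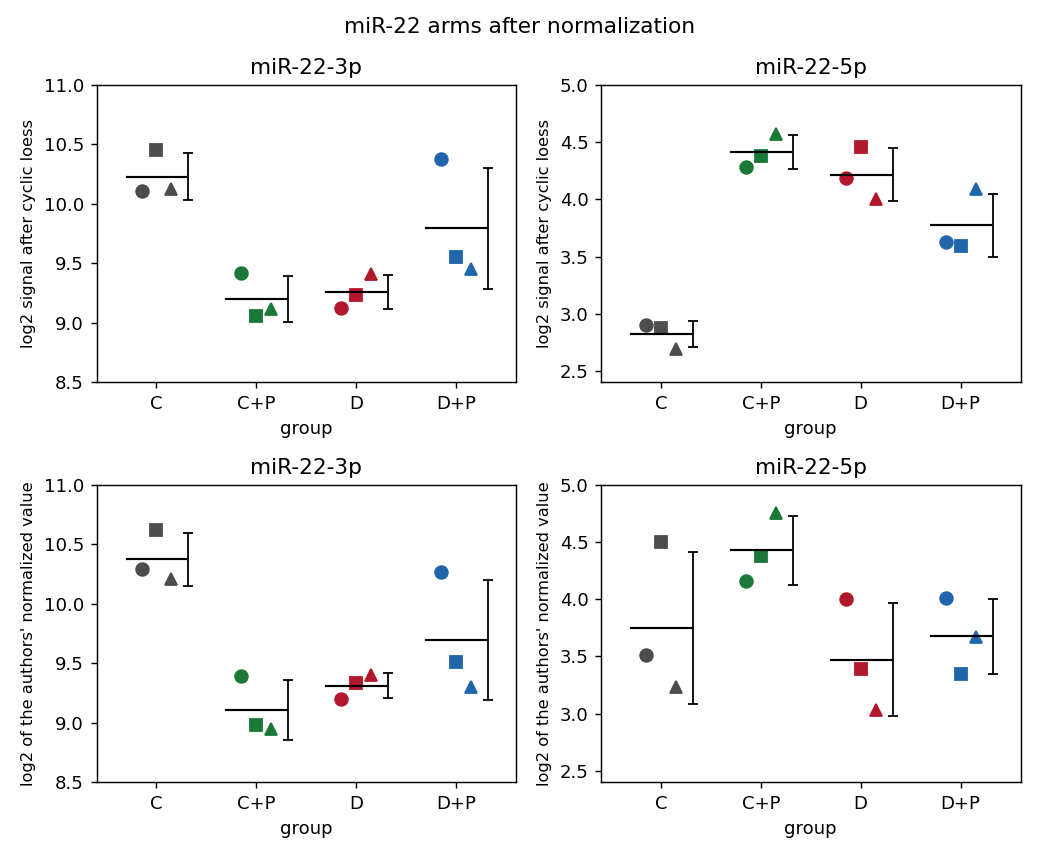
Log2 values of miR-22-3p and miR-22-5p by group after cyclic loess (top) and as normalized by the authors (bottom). Points are hearts, lines are means and bars are SD of 3. The 3p arm has its highest mean in C in both rows, while the low 5p values of the C hearts at the top (2.69 to 2.90) are not seen at the bottom.

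The summed signals of cell type markers differed between the same groups. The summed signal of the 4 heart muscle miRNAs was 6.75% to 7.04% of the array in C, 9.73% to 12.8% in D, 10.71% to 13.03% in C + P and 4.26% to 10.69% in D + P. For 5 immune cell miRNAs it was 0.045% to 0.074% in C, 0.080% to 0.102% in D, 0.135% to 0.165% in C + P and 0.026% to 0.104% in D + P, with 2 of the 5 detected on all 12 arrays and miR-142a-5p and miR-155-5p undetected on all C arrays. The 2 endothelial miRNAs made 1.27% to 1.31% in C, 1.68% to 1.99% in D, 1.72% to 2.20% in C + P and 0.824% to 1.76% in D + P, with miR-126a-5p undetected in C. The 4 fibroblast miRNAs made 0.312% to 0.334% in C, 0.351% to 0.426% in D, 0.411% to 0.482% in C + P and 0.186% to 0.372% in D + P, with miR-214-3p undetected in C. The 2 smooth muscle miRNAs made 0.136% to 0.146% in C and 0.157% to 0.222% elsewhere. The 3 red cell miRNAs made 1.42% to 1.88% in C and 0.922% to 1.76% elsewhere. Of the 6 lists, all but that of red cells had the summed share of the C hearts below that of the D and C + P hearts, as did miR-22-5p. The members of a list did not all move alike. Of the heart muscle miRNAs after cyclic loess, miR-1a-3p differed by 1.32 in D against C and miR-208a-3p by -0.78. MiR-133a-3p (0.007) and miR-499-5p (0.09) hardly differed. The part of cell composition in the values of miR-22 was not tested.

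The comparison of D + P with C + P asked how diabetes went with each arm in hearts under pargyline, within slide 2. After cyclic loess miR-22-5p was 4.28, 4.38 and 4.57 in C + P hearts and 3.63, 3.59 and 4.09 in D + P hearts. It fell in D + P by 0.64 (standard error 0.17, limma adjusted p = 0.033), a 1.56-fold change. The groups did not overlap, and 21.9% of the 128 miRNAs were lower in D + P without overlap. Limma called 13.3% of the 128 miRNAs in this comparison, 5.47% higher and 7.81% lower. Of the called miRNAs 41.2% were higher, against 28.6% with quantile normalization, 0% without normalization and 75% with scaling to the summed signal. This comparison shares its C + P arrays with the one that led to the choice of the arm. The difference was negative in all 16 alternatives to this fit, but the call was lost in 13 of them, among them quantile normalization (limma adjusted p = 0.061), no normalization (0.11) and the authors' values (0.21). It was also lost in 7 of 12 fits with 1 array left out (limma adjusted p up to 0.16).

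MiR-22-3p was 9.42, 9.06 and 9.12 in C + P hearts and 10.38, 9.55 and 9.45 in D + P hearts. No D + P heart overlapped with a C + P heart, and 21.1% of the 128 miRNAs were higher in D + P without overlap. The difference of 0.59 (standard error 0.22, limma adjusted p = 0.074) had a 95% interval of 0.11 to 1.08. The D + P heart of replicate 1 stood apart, and without it the difference was 0.28. In scanner signals the 3p difference was -0.17 with overlapping arrays. For miR-22-5p the scanner difference was -0.91, and the highest D + P signal (21.319) was just under the lowest C + P signal (21.333).

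Over both levels of pargyline neither arm passed the threshold. MiR-22-5p was higher with diabetes by 0.38 (standard error 0.12, limma adjusted p = 0.17), and the difference of miR-22-3p was -0.19 (standard error 0.16, limma adjusted p = 0.54). Limma called 1.56% of the 128 miRNAs in this comparison. Without the D + P heart of replicate 1 both arms passed, at 0.41 and -0.35 with a limma adjusted p of 0.026 each, and the number of miRNAs called went from 2 to 41.

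For both arms the difference with diabetes thus changed sign with pargyline after cyclic loess. Changes of opposite direction, without overlap in either comparison, were seen in 28.1% of the 128 miRNAs after cyclic loess and in 10.9% in scanner signals, where miR-22-5p was among them and miR-22-3p was not. The arm difference changed in this way in 33.3% of the 6 hairpins.

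The comparisons with pargyline are given as a description. In hearts without diabetes, miR-22-5p was higher in C + P than in C by 2.59 in log2 scanner signal, 6.04-fold, where the median of the 128 miRNAs was higher by 1.15 and 1 miRNA had a larger difference. The scanner values of 85.9% of the 128 miRNAs were higher in C + P without overlap. After cyclic loess the difference was 1.59 without overlap (37.5% of the 128 miRNAs) and in the authors' normalized values 0.68 with overlapping arrays. MiR-22-3p was higher by 0.35 in scanner signal, and differed by -1.03 after cyclic loess, without overlap (38.3% were lower in this way), and by -1.26 in the authors' values. Both C + P and D are set against the same C arrays, so the likeness of these differences to those of D against C rests in part on shared samples.

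In diabetic hearts, miR-22-5p differed between D + P and D by -0.17 in scanner signal, where the median difference of the 128 miRNAs was -0.12. The difference was -0.44 after cyclic loess and 0.20 in the authors' values, with overlapping arrays in each case. MiR-22-3p was higher by 0.046 in scanner signal with overlapping arrays and by 0.54 after cyclic loess without overlap. After cyclic loess 25.8% of the 128 miRNAs were higher in D + P than in D without overlap.

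**Figure D4:**
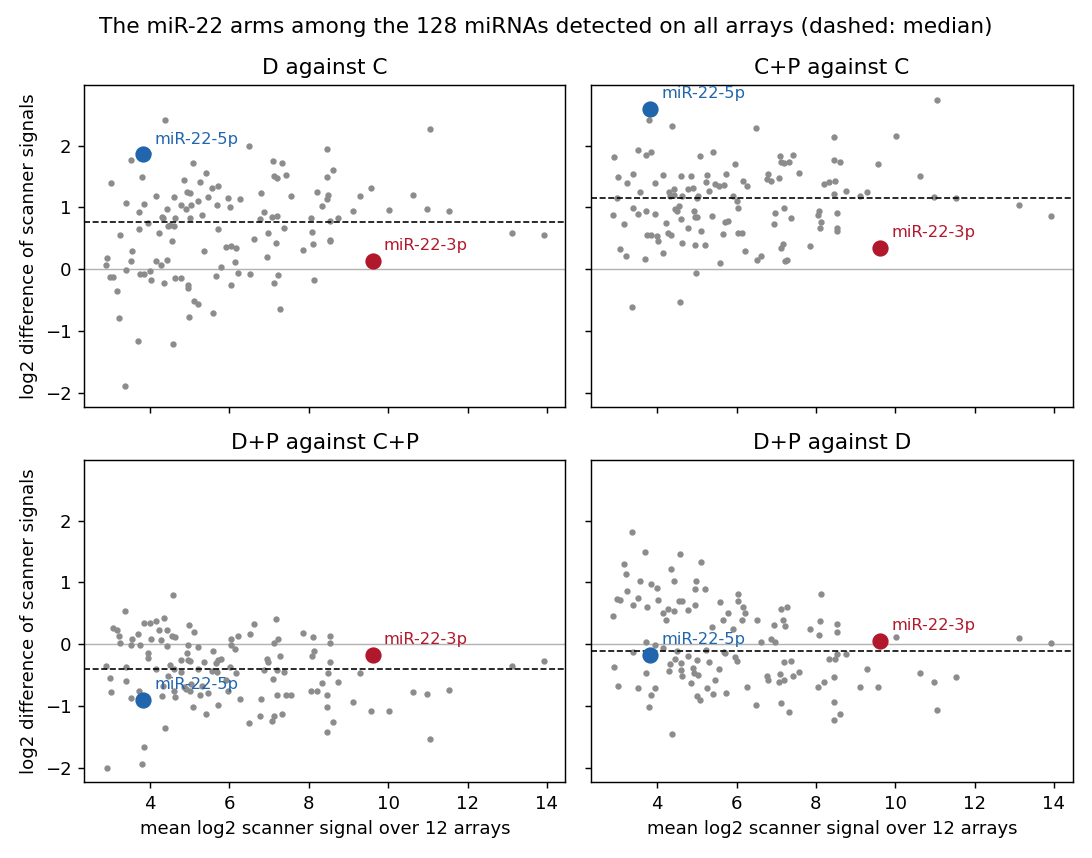
Difference in mean log2 scanner signal (vertical axis) against the mean log2 scanner signal over 12 arrays (horizontal axis) for the 128 miRNAs detected on all arrays, in 4 comparisons. Grey points are miRNAs, the dashed line is their median and the miR-22 arms are coloured. MiR-22-5p lies far above the median in both comparisons with C (1.86 and 2.59), and miR-22-3p lies below it (0.13 and 0.35).

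Both arms were detected on all 12 arrays for 6 hairpins, which gives a background for the change of the arm difference. These were miR-22, miR-30a, miR-30e, miR-133a, miR-199a and miR-378a. The absolute change of miR-22 was the largest of the 6 in D against C (1.73, median of the 6 0.41), in C + P against C (2.24, median 0.36) and in D + P against C + P (0.74, median 0.44). In D + P against D it was the smallest (0.22, median 0.50). MiR-22 was chosen in part on its arm ratio by group on these same arrays, so its place among the 6 is not independent of that choice. Since 83.3% of the hairpins did not overlap in D against C, a shift without overlap was common there, and the ranks of 6 hairpins were not tested.

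In D against C the next hairpin was miR-378a, which is encoded within the Ppargc1b gene of mitochondrial biogenesis and whose 3p minus 5p difference changed by -0.94. It changed by -0.56 in C + P against C, and by 0.32 in D + P against C + P. The difference of the muscle miRNA miR-133a was larger by 0.39 in D and by 0.26 in C + P. That of miR-199a, named here as a fibroblast miRNA, was larger by 0.37 in both. The gap between the brighter and the dimmer arm was narrower in D than in C for 4 of the 6 hairpins, and likewise 4 in C + P. The passenger of miR-22 is dim, and the change of the arm difference was smaller, -0.57 in D against C, when 16 was added to each signal before the log2.

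**Figure D5:**
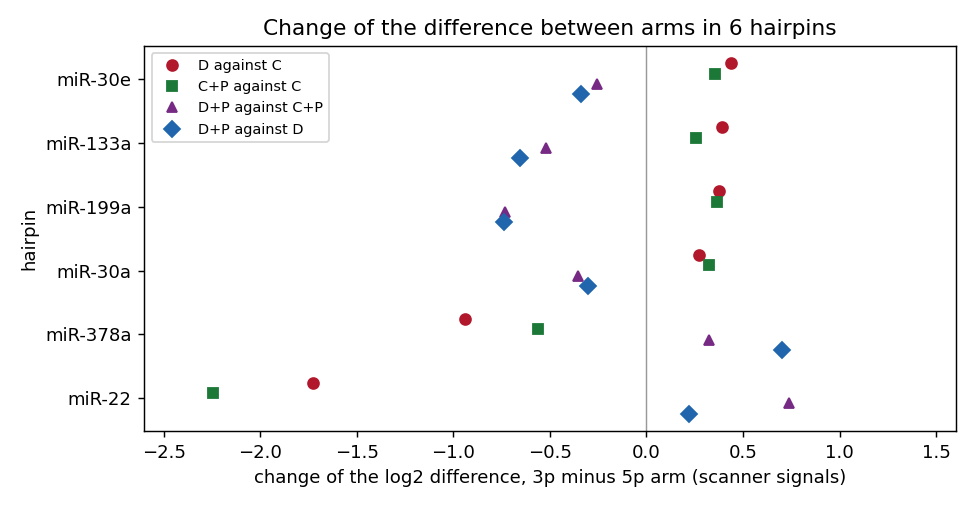
Change of the log2 difference between 3p and 5p arms in scanner signals (horizontal axis) for the 6 hairpins with both arms detected on all 12 arrays, with 1 marker shape for each of 4 comparisons. MiR-22, which was chosen on these same arrays, has the largest shift in D against C (-1.73) and C + P against C (-2.24).

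The miRNAs most like each arm were sought among the 128 by the root mean square difference of log2 profiles over the 12 arrays, each centred on its own mean. After cyclic loess the nearest to miR-22-5p were miR-1a-3p (0.23), miR-23b-3p (0.34) and miR-27a-3p (0.34), where the median over all miRNAs was 0.67. MiR-1a-3p is a heart and skeletal muscle miRNA, and miR-23b and miR-27a come from related gene clusters. In scanner signals they were miR-27a-3p (0.32), miR-23b-3p (0.34) and miR-3968 (0.38), against a median of 0.64. The nearest to miR-22-3p after cyclic loess were miR-30a-5p (0.22), miR-378a-3p (0.22) and miR-7082-5p (0.23), with a median of 0.55. In scanner signals they were miR-30a-5p (0.19), miR-208a-3p (0.20) and miR-378a-3p (0.21), with a median of 0.46. MiR-208a-3p is encoded in a cardiac myosin gene. None of the nearest miRNAs with a sequence shared a seed with its arm, since no other miRNA in the RefSeq table carried either seed. No miRNA was among the 3 nearest to both arms on either scale.

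MiR-22 belongs to a wider set of miRNAs linked to cardiac hypertrophy, of which 18 others were listed and 13 were detected on all 12 arrays. In D against C, 5 of the 13 rose and 2 fell past the limma threshold after cyclic loess, with a median change of 0.21 beside 0.022 over all 128, of which 24.2% were called higher and 25.8% lower. These counts moved with the scaling, to 9 higher and 0 lower without normalization, 2 and 1 with the 75th percentile of the 128 miRNAs, and 2 and 2 in the authors' values. MiR-1a-3p rose by 1.32 (limma adjusted p = 0.0035) and miR-208a-3p fell by 0.78 (limma adjusted p = 0.0073). With no normalization, the 75th percentiles, quantile normalization, the summed signal, the authors' values and cyclic loess, miR-1a-3p was higher in D (1.24 to 2.28) and miR-208a-3p lower (-0.958 to -0.115). Without normalization, where it was -0.115, miR-208a-3p was not called. In D + P against C + P, 1 of the 13 rose and 3 fell, and miR-1a-3p was among those that fell, by 0.87 (limma adjusted p = 0.045), where 5.47% of the 128 miRNAs were called higher and 7.81% lower. All of these calls on the list, that of miR-1a-3p included, were lost without normalization, with the 75th percentiles and in the authors' values, and 1 fall was called with quantile normalization. With scaling to the summed signal, 1 of the list was called higher and 2 lower.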

How the data were processed

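MiRNAs were measured on 12 1-colour Agilent mouse arrays, 1 for each heart, and arrays were mapped to groups through the sample titles. The authors deposited the scanner intensity of 1881 miRNAs per array, its error and a detection flag, with no normalization between arrays and undetected miRNAs written as 0.1. The authors also deposited normalized intensity values of 209 miRNAs and 10 control features, made by a detection filter and cyclic loess. Its values are linear, while the loess settings and centring are not given in the sources used here.

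The 128 miRNAs detected on all 12 arrays were put on the log2 scale, and arrays were brought together by cyclic loess in limma 3.58.1 (R 4.3.3, span 0.7, 3 iterations). Means of the 4 groups were fitted with lmFit and eBayes, and p-values were adjusted by Benjamini-Hochberg over the 128 miRNAs with a threshold of 0.05. The arm difference was compared by exact permutation tests. The hairpin was folded with RNAfold 2.7.2. Named miRNAs are the 2 arms, the 3 nearest to each, the hairpins with both arms detected on all arrays, the marker lists, and up to 5 called miRNAs of the hypertrophy list, from which the text takes examples. The members and lists were chosen with earlier results of these data known. On simulated data for D against C, 90% of 40 changed miRNAs among 128 (1 on the log2 scale) were recovered and 3.79% of calls were false. The alternatives were other normalizations, filters, offsets, adjustments and fits, the methods' t-test, the replicate number as a block and each array left out in turn. Scaling to the summed signal was added after seeing the data. No arrays held identical values, and the number of arrays limits the precision.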

Additional observations from a re-analysis of the deposited data

Results flagged for a closer look

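The differences between diabetic and non-diabetic hearts ran in opposite directions without and with pargyline, with no overlap between the groups on either side, for both arms after cyclic loess, and for miR-22-5p and the arm difference in scanner signals. MiR-22-3p overlapped in scanner signals in both comparisons, and in the authors' normalized values miR-22-5p was lower with diabetes in both, with overlapping arrays in D against C. The difference between the directions was not tested.

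After cyclic loess miR-22-5p differed by 1.39 in D against C and by -0.639 in D + P against C + P, and miR-22-3p by -0.972 and 0.595. Of the 128 miRNAs, 28.1% showed such opposite changes without overlap. In log2 scanner signal miR-22-5p differed by 1.86 and -0.909, a pattern that 10.9% of the 128 miRNAs had. The arm difference in log2 scanner signal changed by -1.73 and 0.739, and 33.3% of the 6 hairpins had opposite changes without overlap.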

How the results depend on the processing

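All values are log2 differences with a limma adjusted p (exact permutation p for the arm difference), and the cause of each change was not tested. With cyclic loess 64 miRNAs were called in D against C, 17 in D + P against C + P and 2 over both levels of pargyline. The rise of miR-22-5p in D kept its direction and call in 14 of 16 alternatives (down to 0.474 with 16 added), and the fall of miR-22-3p in 11. The difference of miR-22-5p in D + P against C + P was negative in all 16 and called in 3. The arm difference in D against C was -2.57 to -0.567 over 5 alternatives. Its exact permutation p could not go below 0.1 with 3 arrays against 3, so no alternative could pass the threshold.

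Without normalization, or equally with the 75th percentile of all miRNAs (which is the undetected value), miR-22-3p was 0.134 in D against C (limma adjusted p = 0.73), -0.17 in D + P against C + P (limma adjusted p = 0.7), 0.0462 in D + P against D and 0.351 in C + P against C, and miR-22-5p was -0.909 (limma adjusted p = 0.11), -0.175 and 2.59 in the last 3, with 2 calls in D + P against C + P and 0 over both levels (9 unadjusted). With the authors' normalized values miR-22-5p was -0.274 in D against C (limma adjusted p = 0.52), -0.753 in D + P against C + P (limma adjusted p = 0.21, 1 call), -0.514 over both levels (limma adjusted p = 0.37, 0 calls, 20 unadjusted), 0.203 in D + P against D and 0.682 in C + P against C, and the arm difference within slides was 0.276 (exact permutation p = 0.535). The 75th percentile of the 128 miRNAs gave miR-22-5p -0.392 (limma adjusted p = 0.095, 3 calls) in D + P against C + P and 0.0909 in D + P against D. Quantile normalization gave -0.615 (limma adjusted p = 0.061, 7 calls) in D + P against C + P, and 0 calls over both levels (18 unadjusted). Scaling to the summed signal gave -0.421 (limma adjusted p = 0.11) in D + P against C + P, and -0.0358 for miR-22-5p and 0.185 for miR-22-3p in D + P against D. With each slide normalized alone C + P against C had miR-22-3p at -0.605 and miR-22-5p at 2.31, while D + P against D had 0.95 and 0.229. In that setting the slides are not brought to a common scale, so these differences include any offset between slides.

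With miRNAs detected in at least 1 group, 98 were called in D against C and 4 over both levels, and miR-22-5p was -0.546 (limma adjusted p = 0.074) in D + P against C + P and 1.3 in C + P against C. With no filter miR-22-3p was -0.792 (limma adjusted p = 0.19, 5 calls) in D against C, and miR-22-5p -0.525 (limma adjusted p = 0.45, 0 calls, 69 unadjusted) in D + P against C + P and 1.31 in C + P against C, with 0 calls over both levels (36 unadjusted). With 16 added, D + P against C + P had 33 calls, and miR-22-5p was -0.198 in D + P against D and 0.652 in C + P against C. Fitting the compared groups alone gave D + P against C + P 1 call (36 unadjusted) and a limma adjusted p = 0.13 for miR-22-5p. With Holm adjustment of limma, miR-22-3p in D against C (-0.972) had an adjusted p = 0.1 (13 calls) and miR-22-5p in D + P against C + P 0.31 (2 calls). The methods' t-test, set beside limma, gave Holm values of 0.25 and 0.089 for miR-22-3p (-0.972) and miR-22-5p (1.39) in D against C (3 calls), and 1 for miR-22-5p in D + P against C + P (0 calls, 24 unadjusted), where Benjamini-Hochberg adjustment gave 0.26 (0 calls).

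The replicate number as a block gave miR-22-5p -0.639 (limma adjusted p = 0.055) and 8 calls in D + P against C + P. Same-numbered arrays correlated between -0.37 and 0.49, and 3 of 12 arrays correlated best with their own number, so the samples share only a number.

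With 1 array left out, D against C gave -1.04 to -0.87 for miR-22-3p, 1.26 to 1.49 for miR-22-5p and 33 to 88 calls (33 without C replicate 2, 42 without C replicate 3). D + P against C + P gave 0.281 to 0.767, -0.796 to -0.553 and 1 to 73 calls (1 without C + P replicate 2 or 3 or D + P replicate 2, 7 without C replicate 1 or 2 or C + P replicate 1, 10 without C replicate 3, D replicate 2 or D + P replicate 1, and 73 without D + P replicate 3). Its call of miR-22-5p was lost without C replicate 1 or 2, any C + P replicate, or D + P replicate 1 or 2, while miR-22-3p was called without D + P replicate 3 (0.767, limma adjusted p = 0.015). Over both levels the ranges were -0.349 to -0.102, 0.3 to 0.432 and 0 to 41 calls, with 0 without C + P replicate 2 or 3 (15 unadjusted each). C + P against C gave -1.13 to -0.927 and 1.5 to 1.66, and D + P against D 0.244 to 0.709 and -0.614 to -0.31. The arm difference was -1.84 to -1.65, 0.612 to 0.926 and, within slides, -0.557 to -0.4. The 5p arm lay within 2.36 to 2.60 times the lowest detected signal on the C arrays, so its level there is the least certain.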
